A study of Mus musculus with 3 samples.

Results

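The cytosolic ribosomal protein genes were taken as the features whose symbol begins Rpl or Rps followed by a number and at most 1 of the letters a, x, y and l, together with the stalk genes Rplp0, Rplp1 and Rplp2 and with Rpsa, given at least 1000 unique molecular identifiers (UMIs, tags that count captured RNA molecules) summed over the 3 matrices. Of 31054 features, 80 matched by symbol and 77 were members, 31 of the small ribosomal subunit and 46 of the large. The other 3, Rpl10l with 1 UMI, Rpl3l with 54 UMIs and Rpl39l with 174 UMIs, are paralogues that fell below the limit. The member with the fewest UMIs was Rpl13a with 156794, followed by Rps27l with 386953, and the member with the most was Rpl41 with 3282574. All 77 passed the filter on low counts in the 5 cell classes compared.

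Single cells of forelimb buds, taken from mouse embryos on embryonic day 9.5, were profiled with 10x Genomics 3′ chemistry. The control library was Esco2fl/fl, with both copies of the cohesin acetyltransferase gene Esco2 flanked by recombination sites. The 2 mutant libraries were Esco2fl/fl;Prrx1-CreTg/0 and so carried the same floxed alleles plus a Cre transgene under the Prrx1 promoter, which is known to drive expression in limb bud mesenchyme. By the labels a replicate pooled 3 samples of 2 limb buds each, 2 male and 1 female. Whether the libraries came from separate litters was not stated, so the variation between libraries may be technical. The single control has no spread of its own. The p-values of mutant against control rest on the spread between the mutants, on a trend over all genes, or on both.

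Ribosomal proteins join ribosomal RNA to form the small subunit, which reads the messenger RNA, and the large subunit, which joins amino acids. Their messenger RNAs are among the most abundant of a growing cell and usually start with a run of pyrimidines, the 5′ terminal oligopyrimidine tract, through which growth signals set their translation together. Several members, when free of the ribosome, bind MDM2 and so stabilise p53. Rps27l, a close copy of Rps27, is also known as a transcriptional target of p53.

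Esco2 was checked first, with levels here and below as CPM, UMIs of a gene in every 1000000 UMIs. In mesenchyme it stood at 32.3 CPM in control 1, 23.0 in mutant 1 and 21.2 in mutant 2. Erythroid cells gave 28.0, 24.3 and 26.96 CPM and flank mesoderm 24.98, 18.16 and 22.23, also with both mutants below the control. Ectoderm gave 33.74, 29.56 and 35.59 CPM, with the control between the mutants. Endothelium gave 27.11, 30.68 and 35.05 CPM, with both mutants above the control. Which exons are deleted was not stated, and 3′ tags can come from a recombined allele, so how far the gene was lost cannot be read from these counts. The Cre transgene, counted as the feature CRE, had 0 UMIs in control 1, 54 in mutant 1 and 122 in mutant 2 in mesenchyme. It had 0 to 1 per library in ectoderm, endothelium and erythroid cells. In flank mesoderm it had 0, 4 and 1, which is 1.08 CPM in mutant 1 and 0.359 in mutant 2. Mesenchyme had 1.19 and 1.38 CPM in the same libraries.

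The matrices held 6527, 7219 and 8755 barcodes for control 1, mutant 1 and mutant 2, and 4048, 3590 and 4684 cells passed the filters. Over all kept cells the control library was shallower, with a median of 23046 UMIs, against 36296 and 41450. Its 1412 cells in no gate had a median of 1878 UMIs. Libraries shared between 18 and 19 kept barcodes per pair. Cells were placed in a class by marker genes that include no member, with gate limits set after the counts were seen. 5 classes reached 50 cells in each of the 3 libraries and were compared. They were limb mesenchyme (905, 1092 and 1842 cells in control 1, mutant 1 and mutant 2), surface ectoderm (371, 445 and 270), endothelium (631, 430 and 460), primitive erythroid cells (422, 609 and 464) and flank and lateral plate mesoderm (134, 92 and 84). The order of depth differed between classes. Over all its cells, mesenchyme had medians of 24629, 30595.5 and 49348 UMIs. The depths that follow cover only cells with at least 10% of UMIs on members, and so are chosen on the share under study. On this measure mesenchyme had 15284, 51056 and 58569.5 UMIs, with control 1 the shallowest. In the other classes control 1 was the deepest on this measure. The medians were 51502.5, 40998 and 30576 in ectoderm and 88174, 68522 and 54901 in endothelium. They were 93741, 64142 and 59566 in erythroid cells and 76756, 47841 and 31816 in flank mesoderm. Within 20% above its gate limit lay 131 to 217 mesenchyme cells per library and 19 to 33 flank cells. The labels call the sample mesenchymal limb buds, but these classes show that other cells were present. In a clustering of all kept cells made without the members, the cells of a class were not spread alike over clusters in the 3 libraries. Of the mesenchyme cells, clusters 1 and 6 held 197 and 210 in control 1, 79 and 46 in mutant 1 and 104 and 74 in mutant 2. Cluster 0 held 191, 301 and 1008 of them, and cluster 12 held 0, 90 and 137. Of the flank cells, cluster 17 held 36, 0 and 57 and cluster 7 held 69, 78 and 19. Of the erythroid cells, cluster 3 held 306, 462 and 179 and cluster 9 held 116, 142 and 285. The part of this in the comparisons of genotypes was not tested.

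In mesenchyme the summed mesenchyme markers stood at 1781 to 1966 CPM. The next highest lists there were the erythroid one, at 558 to 604 CPM, and the endothelial one, at 54.3 to 75.5. The flank class also held limb mesenchyme markers, at 380 to 633 CPM beside 991 to 1005 of its own. Its erythroid markers stood at 3563 CPM in mutant 1, against 426 in control 1 and 545 in mutant 2. The part of these in the flank results was not tested.

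Members made up between 15.2% and 20.3% of all UMIs in each compared class and library. In mesenchyme the share was 19.2% in control 1, 17.2% in mutant 1 and 20.3% in mutant 2, so the mutants lay on either side of the control. In endothelium it was 20.2%, 19.7% and 20.3%, again on either side. In surface ectoderm it was 17.8%, 16.5% and 15.2%, in flank mesoderm 17.9%, 16.3% and 15.2%, and in erythroid cells 20.2%, 19.0% and 19.5%. In these 3 classes both mutants lay below the control, but not at every depth: within 10000 to 60000 UMIs the mutant mean minus the control was 2.32 percentage points in ectoderm, 1.64 in flank mesoderm and 0.974 in erythroid cells. The exact Clopper-Pearson 95% intervals were at most 0.0844 percentage points wide and cover counting error only. With 1 control and 2 mutants an exact permutation test cannot go below a p of 0.333, so no test was made of the share.

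The mutant mean minus the control was -2.14 percentage points in flank mesoderm, -1.98 in ectoderm, -0.886 in erythroid cells, -0.468 in mesenchyme and -0.27 in endothelium. Depth moved with these differences. Over cells of at least 30000 UMIs, a limit chosen after seeing the data, the ectoderm shares were 18.5%, 18.4% and 18.6% and their difference was -0.029 points, while that of flank mesoderm was -1.30. In the same cells the mesenchyme shares were 19.4%, 18.9% and 21.2%, a difference of 0.726 points. Haemoglobin took 36.6%, 39.7% and 41.8% of erythroid UMIs, and without haemoglobin and mitochondrial UMIs the erythroid shares were 32.7%, 32.5% and 34.4%.

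Single cells did not share one level, as the plot of share per cell shows. The median mesenchyme cell held 21.9% in control 1, 14.8% in mutant 1 and 20.5% in mutant 2, with 25th percentiles of 9.53%, 6.15% and 12.5%. Under 10%, a limit set after seeing the data, lay 25.3% of control 1 mesenchyme cells (95% exact interval 22.5 to 28.3), 37.5% of those of mutant 1 (34.6 to 40.4) and 20.4% of those of mutant 2 (18.6 to 22.3). The mutants thus lay above and below the control. In ectoderm the values were 25.6%, 31.5% and 41.5%, and in endothelium 14.3%, 12.1% and 10.2%. Among erythroid cells such cells numbered 7 of 422, 0 of 609 (exact upper limit 0.604%) and 1 of 464.

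**Figure D1:**
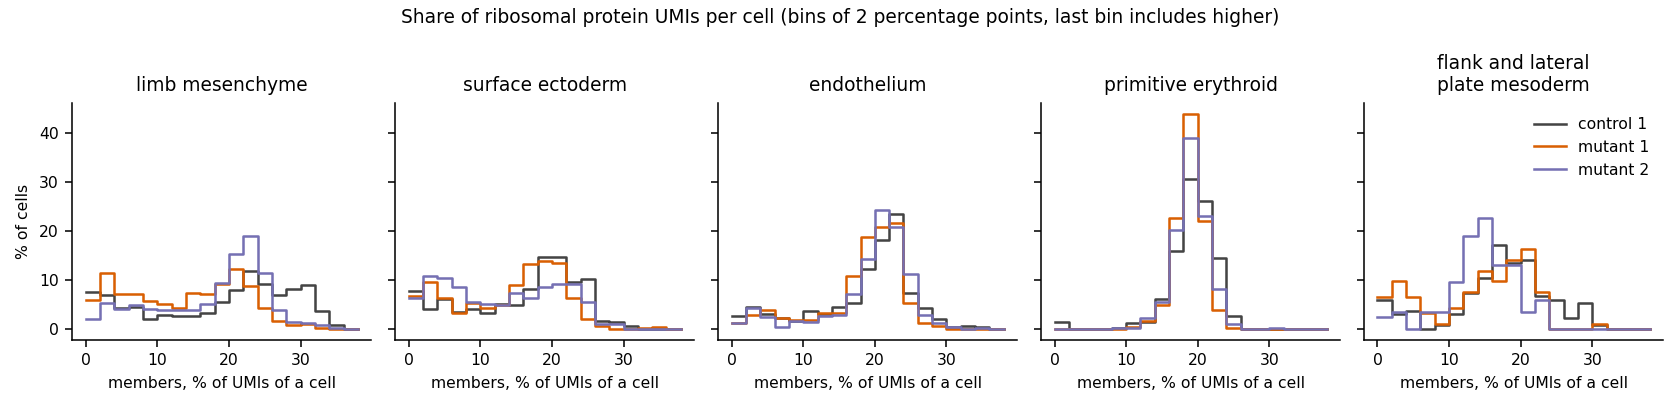
Percentage of cells (y axis) by the share of a cell's UMIs that fell on the 77 members (x axis, percent, bins of 2 percentage points), for 5 classes and 3 libraries (lines). Erythroid cells form 1 peak, with medians of 19.6%, 19.0% and 19.1%, while mesenchyme, ectoderm and endothelium also hold cells under 10%.

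Mesenchyme cells under 10% also differed from the rest in other RNA. Mitochondrial UMIs, as a share of all UMIs that are not of members, had a median of 6.28% in these mesenchyme cells of control 1 and 1.49% in the rest. The pairs were 6.46% and 2.29% in mutant 1 and 6.46% and 2.46% in mutant 2. Malat1, a nuclear noncoding RNA, stood at 0.705% and 0.167% in control 1, 0.723% and 0.396% in mutant 1, and 0.640% and 0.360% in mutant 2. Across mesenchyme cells the Spearman correlation of member share with the mitochondrial share was -0.72 (n = 905), -0.72 (n = 1092) and -0.67 (n = 1842), as a description over cells that share a library. They differed in depth as well, with no common direction: their median was 31636 UMIs in control 1, against 15284 in the rest, but 20019 against 51056 in mutant 1 and 18234 against 58569.5 in mutant 2. The 7 erythroid cells under 10% in control 1 had less of both RNAs than the rest, with 0.255% against 2.22% mitochondrial and 0.020% against 0.313% Malat1. Barcodes left out for a high mitochondrial share had a median member share of 2.67%, 4.94% and 4.54%. What the low share comes from was not tested.

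The share differed between depths without a steady direction. In mesenchyme of mutant 1 it was 13.0% under 3000 UMIs, 8.03% between 10000 and 30000, and 20.5% over 100000. Mutant 2 had 13.8%, 11.4% and 21.2% in the same bins. In control 1 the low point came one bin later, at 14.0% between 30000 and 100000 UMIs, after 16.5% in the bin before and 24.2% between 3000 and 10000. Ectoderm and endothelium also had lower shares between 10000 and 30000 UMIs (8.68%, 10.4% and 10.9% in ectoderm and 11.6%, 9.63% and 11.3% in endothelium) than between 30000 and 100000 (17.2%, 18.4% and 18.6%, and 18.5%, 19.96% and 20.9%). Below 10000 UMIs ectoderm parted by library: between 3000 and 10000 it had 13.9% in 33 control cells, 7.11% in 42 cells of mutant 1 and 6.30% in 22 cells of mutant 2. Erythroid cells stayed between 17.8% and 20.7% in all bins with at least 20 cells, except 13.6% in the 25 control cells between 10000 and 30000 UMIs.

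**Figure D2:**
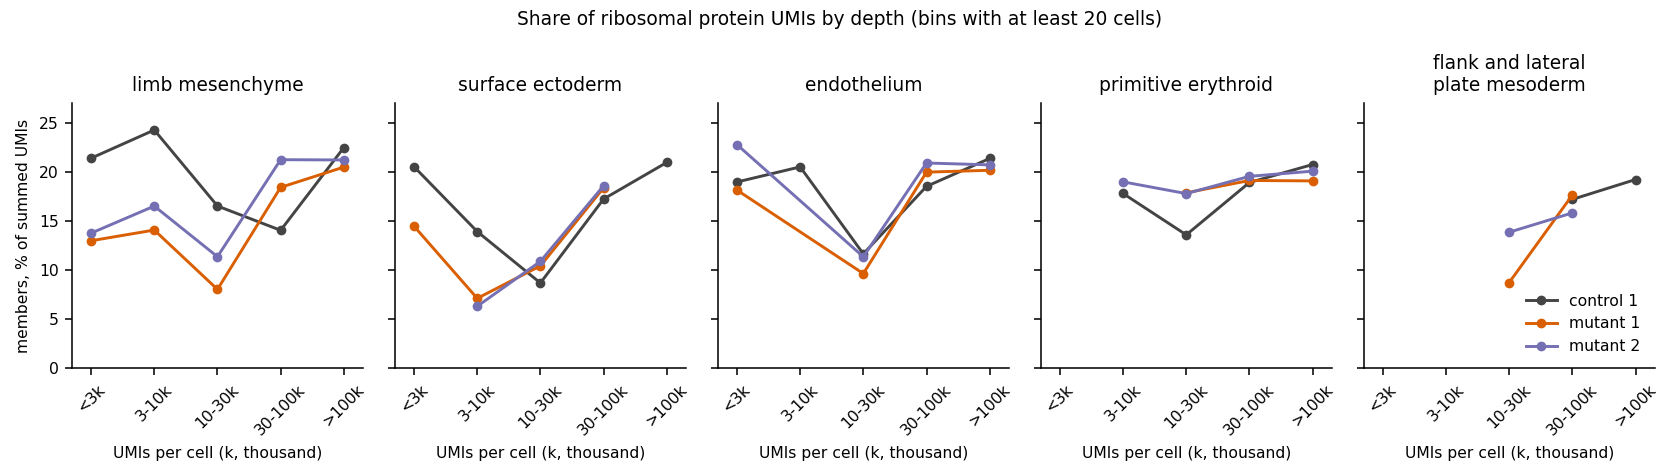
Members as a percentage of summed UMIs (y axis) in bins of UMIs per cell (x axis), by class and library, for bins with at least 20 cells. The lowest bin differs between control and mutants in mesenchyme, where it reaches 8.03% in mutant 1, and in ectoderm, where it is 8.68% between 10000 and 30000 UMIs in control 1 and 7.11% and 6.30% between 3000 and 10000 in the mutants.

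Single members were compared between mutant and control with edgeR's quasi-likelihood test on UMIs summed per library and class, with Benjamini-Hochberg adjustment over all genes tested. Values are CPM after scaling by TMM factors, and differences are log2 ratios of mutant to control. Each SE here and below is the size of the log2 difference divided by the square root of edgeR's F statistic. It is not a separate estimate of error. No member was called in any class. Of all genes, 1.07% were called in mesenchyme and 0.0% in each of the other 4 classes. At an unadjusted p under 0.05 there were 0 members in mesenchyme (4.36% of all genes), 6 in ectoderm (11.0%), 2 in flank mesoderm (0.82%), 13 in endothelium (6.89%) and 4 in erythroid cells (2.43%). DESeq2 called Rpl27 lower in the mutants in ectoderm (adjusted p = 0.00122), endothelium (2.11e-06) and erythroid cells (6.73e-07), and Rps2 in erythroid cells (0.014), where it called 0.515% of genes in mesenchyme, 0.347% in ectoderm, 0.0286% in flank mesoderm, 0.482% in endothelium and 0.318% in erythroid cells. limma-voom called 0 members in the 5 classes (0.951% of genes in mesenchyme and 0.0% in the others).

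The members' median log2 difference was -0.05 in mesenchyme, -0.26 in ectoderm, -0.23 in flank mesoderm, -0.06 in endothelium and 0.06 in erythroid cells, where all genes had -0.00, 0.01, 0.03, 0.01 and -0.01. In mesenchyme the median was -0.23 for mutant 1 alone and 0.09 for mutant 2 alone. Both mutants lay below the control for 75 of 77 members in ectoderm (37.0% of all genes), 74 in flank mesoderm (26.7%), 16 in erythroid cells (33.9%), 52 in endothelium (35.2%) and 13 in mesenchyme (26.3%). Both lay above it for 41 members in erythroid cells (29.3%), 9 in endothelium (35.4%) and 0 in mesenchyme (26.9%), ectoderm (37.6%) and flank mesoderm (27.1%). In ectoderm other marker lists moved too: summed coelomic epithelium markers stood at 147.1, 101.4 and 64.8 CPM, limb mesenchyme markers at 284, 255 and 241 and erythroid markers at 447, 565 and 598. Their part in the ectoderm values was not tested. Members share their cells and the scaling, so these counts are not independent observations. Within a window of 10000 to 60000 UMIs the medians turned to 0.26 in ectoderm, 0.25 in flank mesoderm and 0.26 in mesenchyme. The member shares of both mutants lay above the control there in ectoderm and flank mesoderm. In mesenchyme they were 13.0% in control 1, 12.1% in mutant 1 and 17.7% in mutant 2, so the control lay between the mutants. In endothelium the same window called 71 members higher in the mutants, where 9.52% of all genes were, and the control share there was 10.9% against 17.3% and 19.4%.

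**Figure D3:**
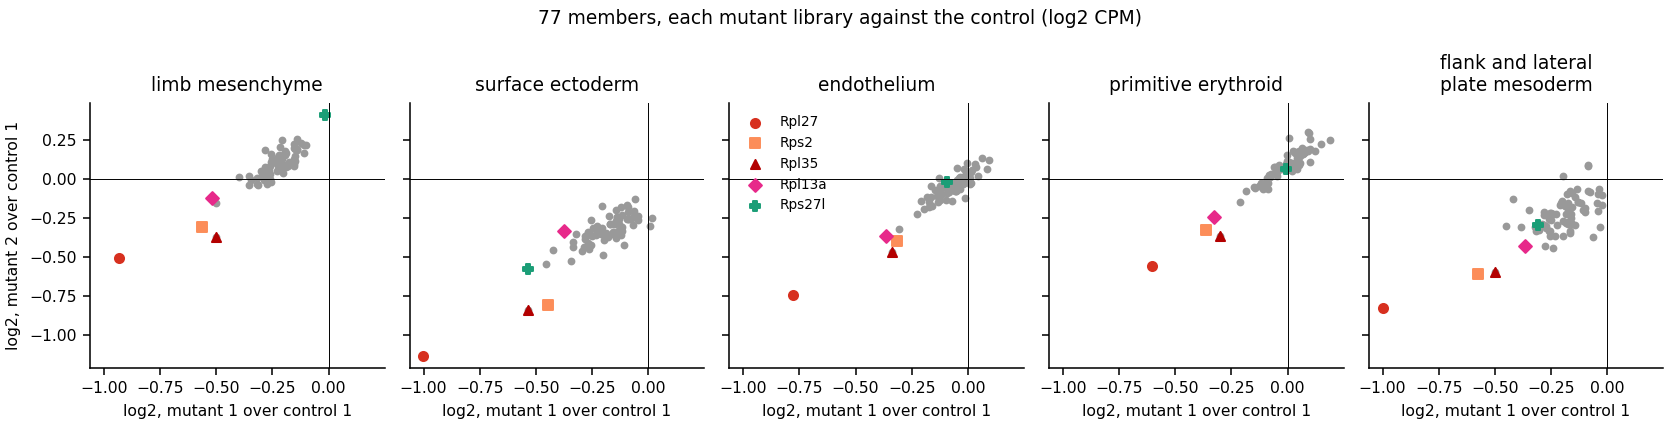
Log2 ratio of CPM for the 77 members, mutant 1 over control 1 (x axis) and mutant 2 over control 1 (y axis), in 5 classes; grey points are the members without a symbol in the key. Rpl27, Rps2, Rpl35 and Rpl13a lie below 0 on both axes in every class, with Rpl27 lowest.

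Rpl27, a protein of the large subunit, had the lowest p of the 77 members in 4 classes and the next lowest, after Rps2, in flank mesoderm. In mesenchyme it stood at 977.7 CPM in control 1, 511.7 in mutant 1 and 686.2 in mutant 2 (log2 -0.71, SE 0.39, edgeR adjusted p = 1.00). In ectoderm it stood at 711.8, 355.2 and 323.8 CPM (log2 -1.07, SE 0.15, adjusted p = 0.429). Erythroid cells, in which CRE was at 0 to 1 UMI, gave 1003.6, 661.5 and 681.3 CPM (log2 -0.58, SE 0.07, adjusted p = 1.00). Both mutants lay below the control in each of these classes, as for 26.3% of all genes in mesenchyme, 37.0% in ectoderm and 33.9% in erythroid cells. Rpl27 was named for its low p in these same data.

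Endothelium gave 977.6, 570.0 and 583.9 CPM for Rpl27 (log2 -0.76, SE 0.06, adjusted p = 0.673), and flank mesoderm 756.8, 378.3 and 424.9 (log2 -0.91, SE 0.30, adjusted p = 1.00). Rps2, a small subunit protein at the messenger RNA entry side, stood at 3739.5, 2530.2 and 3017.5 CPM in mesenchyme (log2 -0.43, SE 0.45) and at 4174.2, 3249.2 and 3327.0 in erythroid cells (log2 -0.34, SE 0.08). Rpl35, a large subunit protein near the exit of the nascent chain, stood at 1805.6, 1276.5 and 1392.3 CPM in mesenchyme (log2 -0.44, SE 0.42). Rpl13a had 337.9, 236.0 and 309.8 CPM there (log2 -0.31, SE 0.37). For these 4 genes the control lay above both mutants in each of the 5 classes over all depths, as for 4.7% of the 6767 genes tested in every class. Within 10000 to 60000 UMIs the log2 difference was above 0 in endothelium for Rpl27 (0.45), Rps2 (0.84), Rpl35 (0.61) and Rpl13a (0.56), and in flank mesoderm for Rps2 (0.0083) and Rpl35 (0.0065). Without a filter on low counts, edgeR called Rpl27, Rpl35, Rps2 and Rps27l lower in ectoderm (2.51% of genes) and Rpl27, Rpl35 and Rps2 lower in erythroid cells (1.03%).

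Other members with 1 of the 5 lowest p in a class were Rpl10, Rpl38, Rpl31, Rpl41, Rps28 and Rps27l. Rpl10 stood at 1945.8, 1375.0 and 1748.4 CPM in mesenchyme (log2 -0.32, SE 0.43) and 2023.7, 1638.2 and 1616.0 in endothelium (log2 -0.32, SE 0.05). In ectoderm Rpl38 stood at 2464.7, 1800.5 and 1688.3 CPM (log2 -0.50, SE 0.19). Both mutants lay below the control in each of these, as for 26.3% of all genes in mesenchyme, 35.2% in endothelium and 37.0% in ectoderm. None was called. In ectoderm Rpl31 had 1346.5, 1005.0 and 982.0 CPM (log2 -0.44, SE 0.17). In flank mesoderm Rpl41, the shortest ribosomal protein, had 6283.9, 5133.8 and 5128.5 CPM (log2 -0.29, SE 0.12) and Rps28 had 3089.9, 2368.7 and 2488.5 (log2 -0.35, SE 0.17).

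Over all 5 classes, 10 members lay below the control in both mutants everywhere, 13.0% of 77, against 4.7% of the 6767 genes tested in every class. None lay above everywhere, against 1.74%. The 10 were Rpl27, Rpl35, Rps2, Rpl13a, Rpl10, Rpl29, Rps7, Rpl36a, Rpl3 and Rpl41, and were named after their values were seen. As a share of member UMIs, 13 members were lower and 14 higher in both mutants in each class, with Rpl27 between -0.82 and -0.60 on the log2 scale and Rps14 between 0.09 and 0.32. The 5 classes of a library share its preparation, so they are not separate replicates. Annotated transcripts of other genes share sequence with these members, and where those genes lie was not checked. Of the 60-base words in the last 300 bases of its transcripts, Rpl35 shared 95.9% with another gene, Rpl10 88.1%, Rps2 68.8%, Rpl27 59.1% and Rpl13a 46.9%, where the median of the members was 48.9%. Over the 77 members this share and the median log2 difference had a Spearman correlation of -0.19, given as a description.

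Lists of members with a known role gave no call. Since 1.07% of all genes were called in mesenchyme and 0.0% in each other class, nothing is read from these counts of 0. Of 10 members reported to bind MDM2, among them Rpl5 and Rpl11, 0 were called in any class, and their median log2 difference in mesenchyme was -0.04. In mesenchyme Rpl5 stood at 1927.4, 1509.0 and 1953.6 CPM and Rpl11 at 2596.7, 2331.7 and 2834.4, with the control between the mutants for both genes. Of 9 members with known mouse mutant alleles, such as Rpl38, whose loss alters the axial skeleton, and Rpl24, 0 were called and the mesenchyme median was -0.06. The stalk and laminin receptor members Rplp0, Rplp1, Rplp2 and Rpsa had a median of -0.10 and the X-linked members Rps4x, Rpl10, Rpl36a and Rpl39 one of -0.15. Of 16 translation factors known for a pyrimidine tract, 0 were called and the median was -0.12. Of 77 tested mitochondrial ribosomal proteins, which build a separate ribosome, 0 were called, with medians of -0.00 in mesenchyme and -0.30 in ectoderm, where the members had -0.26. Of 13 regulators of the translation of such messenger RNAs, 0 were called, with a mesenchyme median of -0.12. The same held for 4 ribosomal proteins outside the symbol rule (median -0.09), 4 paralogues outside it (-0.10) and the 2 tested of 9 snoRNA host genes (-0.58). Of 7 p53 target genes, chosen with earlier results of these data known, 6 were called higher in mesenchyme, as were 0.634% of all genes. Cdkn1a rose there from 1.36 CPM to 53.7 and 59.6 (log2 5.38). In the other classes 0 were called, as were 0.0% of all genes. Their median log2 difference was 3.54 in mesenchyme and 0.60 in flank mesoderm, where 6 of 7 were above 0. It was -0.04 in ectoderm, -0.12 in endothelium and -0.32 in erythroid cells, where 6, 5 and 3 of them were tested.

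A genotype effect that differs between classes was tested as an interaction. Mesenchyme against ectoderm called 0 members (1.28% of all genes) and mesenchyme against erythroid cells 0 members (2.23%), each with 0 members at an unadjusted p under 0.05 and 4.88% and 8.13% of genes. The member with the lowest p against ectoderm was Rps27l, with a log2 difference of 0.74 (SE 0.55, edgeR adjusted p = 0.999).

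Between classes all 77 members differed by the edgeR F test with the library as a block, as did 96.4% of all genes. With TMM factors all 77 members were higher in erythroid cells than in the mean of the other classes (39.4% of genes) and 0 were lower (44.4%), by a median log2 of 1.40. All 77 were lower in ectoderm (35.4%, median -0.65) and in flank mesoderm (27.8%, median -0.53), with 0 higher in ectoderm (35.4%) and flank mesoderm (31.2%). In mesenchyme 56 were lower (27.9%, median -0.28) and 0 higher (30.3%), and in endothelium 2 were higher (32.5%) and 1 lower (31.5%).

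These directions depend on the scaling and on the classes in the fit. Haemoglobin UMIs were at most 0.354% in the compared classes other than erythroid cells. Over all UMIs, without TMM factors, 30 members were higher (7.21% of genes) and 6 lower (84.9%) in erythroid cells, and the median was 0.10. In mesenchyme 15 were higher (59.7%) and 1 lower (11.9%), and in endothelium 45 were higher (41.8%) and 0 lower (22.4%). In ectoderm 48 were lower (13.4%) and 0 higher (61.5%), and in flank mesoderm 51 lower (10.0%) and 0 higher (53.3%). That scaling moved the median of all genes to -1.37 in erythroid cells, 0.37 in mesenchyme, 0.46 in ectoderm, 0.14 in endothelium and 0.33 in flank mesoderm. Relative to it the members' medians were 1.47, -0.29, -0.64, 0.05 and -0.53. Without erythroid cells in the fit, 74 members were higher in endothelium (33.1% of genes) and 0 were lower in mesenchyme (25.8%). The mesenchyme count was 17 without control replicate 1 (18.7%), 7 without mutant replicate 1 (21.9%) and 71 without mutant replicate 2 (23.8%). Mitochondrial ribosomal proteins had like medians with TMM factors, 1.17 in erythroid cells and -0.72 in ectoderm.

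**Figure D4:**
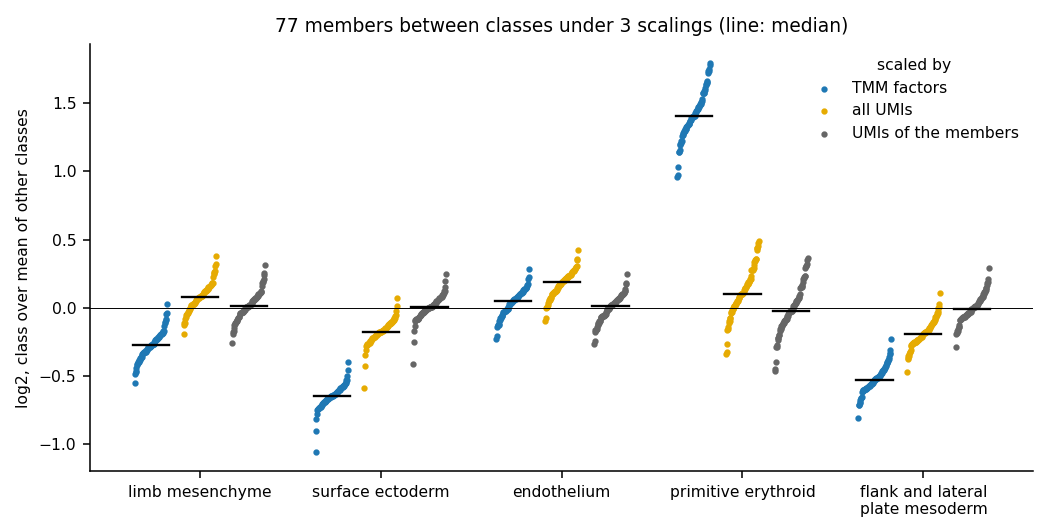
Log2 ratio of each of the 77 members in a class over the mean of the other classes (y axis) for 5 classes (x axis) under 3 scalings, with the median as a line. The erythroid median is 1.40 with TMM factors and 0.10 over all UMIs.

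The members with the widest range over classes were Rpl27 (2.24 on the log2 CPM scale), Rplp0 (2.16), Rpl14 (2.01), Rpsa (1.99), Rpl13 (1.98), Rpl28 (1.97), Rps18 (1.95), Rpl6 (1.89), Rplp1 (1.89) and Rpl35 (1.86). Rplp0, the base of the ribosomal stalk, stood at 8239 CPM, 7958 CPM and 8998 CPM in erythroid cells of control 1, mutant 1 and mutant 2 when the classes were scaled together, and at 2124, 1957 and 1588 CPM in ectoderm. The classes did not overlap.

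Scaled to the members' own UMIs, which leaves only the make-up of the set, the members spread less: the range of the class means had a median log2 of 0.22 and reached 0.62. The widest was Rps27l, with 0.39% ± 0.04 (SD, n = 3) of member UMIs in mesenchyme and 0.25% ± 0.0026 in erythroid cells. Rps21 had 1.54% ± 0.01 in endothelium and 1.04% ± 0.06 in erythroid cells. Rplp0 had 2.07% ± 0.03 in erythroid cells and 1.47% ± 0.09 in ectoderm. On this scale edgeR called Rps27l (log2 -0.46, SE 0.08) and Rps21 (log2 -0.45, SE 0.03) lower and Rplp0 (log2 0.37, SE 0.03) and Rpsa (log2 0.31, SE 0.03) higher in erythroid cells, with 21 members higher (5.94% of genes) and 28 lower (87.1%) in all. The counts were 20 higher (52.1%) and 16 lower (12.3%) in mesenchyme, 12 (70.3%) and 12 (8.31%) in ectoderm, 14 (28.8%) and 18 (30%) in endothelium, and 17 (66.3%) and 15 (5.85%) in flank mesoderm.

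Rps27l lies at chr9:66946086-66949516 on the plus strand and Rps27 at chr3:90212522-90213651 on the minus strand (GRCm38). Their coding sequences have the same length of 252 bases and differ at 60, an identity of 76.2%. They are shown because Rps27l is the member whose values part from the others below, and capitals mark the bases that differ. Only 11.0% of the words at the 3′ ends of Rps27l were shared with another gene.
Rps27: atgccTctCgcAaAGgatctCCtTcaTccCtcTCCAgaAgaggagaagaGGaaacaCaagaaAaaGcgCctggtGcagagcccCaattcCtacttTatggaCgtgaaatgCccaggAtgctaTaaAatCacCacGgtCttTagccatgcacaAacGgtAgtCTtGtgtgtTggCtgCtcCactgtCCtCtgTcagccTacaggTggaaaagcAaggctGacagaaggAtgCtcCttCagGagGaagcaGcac
Rps27l: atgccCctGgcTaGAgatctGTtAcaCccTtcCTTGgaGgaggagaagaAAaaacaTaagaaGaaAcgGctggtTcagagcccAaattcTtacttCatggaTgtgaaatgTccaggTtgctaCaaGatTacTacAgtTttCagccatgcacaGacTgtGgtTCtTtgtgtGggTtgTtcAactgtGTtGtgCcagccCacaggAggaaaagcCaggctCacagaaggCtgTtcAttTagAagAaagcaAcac

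Rps27l stood at 668.4 CPM in control 1, 661.9 in mutant 1 and 887.8 in mutant 2 in mesenchyme (log2 0.21, SE 0.41, edgeR adjusted p = 1.00). Mutant 2 was high there, and mutant 1 lay just below the control. In ectoderm it stood at 675.2, 466.2 and 452.0 CPM (log2 -0.56, SE 0.15, adjusted p = 0.429), with both mutants below the control. Endothelium gave 717.7, 673.5 and 706.0 CPM and erythroid cells 488.7, 486.6 and 511.0.

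Cells with and without a UMI of Cdkn1a, the p53 target that encodes the cell cycle inhibitor p21, were then compared within each library, with the library as a block. This comparison was added after the data were seen. In mesenchyme 14, 166 and 304 cells of control 1, mutant 1 and mutant 2 had a Cdkn1a UMI, and 891, 926 and 1538 had none. A UMI is seen more often in deep cells: median depths were 48655, 44352 and 54870 UMIs with one and 24079, 28904 and 47974 without.

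In mesenchyme Rps27l stood at 819.1, 929.8 and 1137.0 CPM in the cells with a Cdkn1a UMI and at 655.2, 588.2 and 819.9 in those without. It was higher in 3 of 3 libraries and had the largest ratio of the 77 members in each. The log2 difference was 0.49 (SE 0.08, edgeR adjusted p = 0.0258), and Rps27l was the 1 member called, where 2.82% of genes were called and 2.6% were called higher. The members' median was 0.13. Over cells of at least 30000 UMIs it was 0.45 (adjusted p = 0.0235). Rps27l lost the call without mutant replicate 1 (0.41, edgeR adjusted p = 0.585), where 1 of 9986 genes was called. It also lost it without mutant replicate 2 (0.49, edgeR adjusted p = 0.111), where 45 of 10106 were. With all libraries 285 of 10117 genes were called. Without control replicate 1, 1 member was called higher and 2308 of 10195 genes were called.

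Erythroid cells gave 733.6, 545.3 and 679.5 CPM with and 472.2, 486.7 and 498.8 without a Cdkn1a UMI (log2 0.42, SE 0.06, edgeR adjusted p = 9.41e-09), from 27, 30 and 33 cells with one. Rps27l was again the 1 member called (1.61% of genes, 1.43% higher). Without control replicate 1 its edgeR adjusted p was 0.118, where 49 of 7244 genes were called. In endothelium the difference was 0.19 (SE 0.06, adjusted p = 0.171), with 0 members called (1.01% of genes, 0.604% higher) and 17 at an unadjusted p under 0.05 (13.1%), while without mutant replicate 2 Rps27l (0.22, adjusted p = 0.0307) was 1 of 11 members called (4.56% of genes). In ectoderm all 77 members were called higher (46.8% of genes called, 24% higher), and Rps27l at 0.74 stood near their median of 0.65. Over ectoderm cells of at least 30000 UMIs edgeR called 0 members (1.02% of genes), with 13 at an unadjusted p under 0.05 (15.2%), the members' median was 0.31 and Rps27l had 0.35 (adjusted p = 0.327). Scaled to the members' own UMIs, 4 members were higher (0.261%) and 3 lower (76.8%) in ectoderm. Flank mesoderm, with 10 to 13 cells with a UMI, was not tested.

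**Figure D5:**
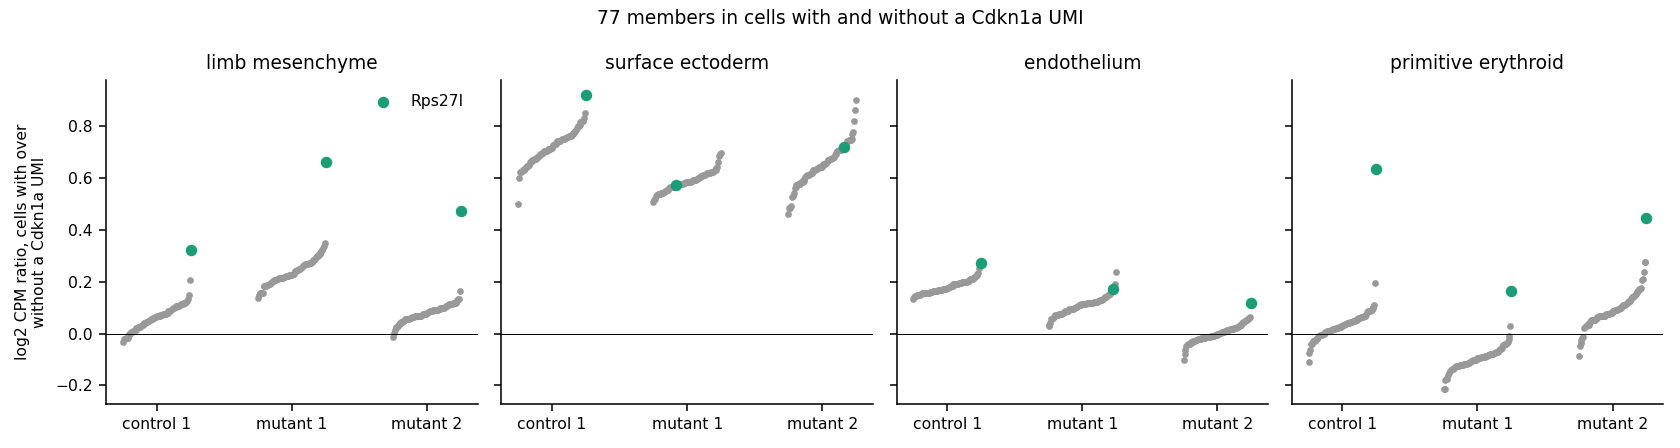
Log2 ratio of CPM in cells with over cells without a Cdkn1a UMI (y axis) for 77 members in each library (x axis), sorted by size, in 4 classes. Rps27l, in green, lies above all other members in the 3 libraries of mesenchyme and erythroid cells, and among them in mutant 1 and mutant 2 of ectoderm.

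Promoter sequences were found in the RefSeq table (GRCm38.p6) for 57 of the 77 members. Windows of 30 bases around the annotated start are shown for genes the results turn on, with the longest run of a C followed by at least 4 pyrimidines in capitals.
Rpl35: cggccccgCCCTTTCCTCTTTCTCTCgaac
Rps2: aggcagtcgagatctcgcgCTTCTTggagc
Rpl13a: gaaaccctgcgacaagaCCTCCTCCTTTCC
Rpl27: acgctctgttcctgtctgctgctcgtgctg
Rps27: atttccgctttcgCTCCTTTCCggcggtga
Rps27l: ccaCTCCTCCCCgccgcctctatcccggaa

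These windows are chr2:39005117-39005146, chr17:24720048-24720077, chr7:45128731-45128760, chr11:101442230-101442259, chr3:90213634-90213663 and chr9:66946071-66946100, in that order, with Rpl35, Rpl13a and Rps27 on the minus strand. The window of Rpl27 held no such run. Rps27l has another RefSeq start, whose window, chr9:66946398-66946427, held no such run and is not shown. In the counts that follow, a gene counted when any of its starts matched. A C followed by 4 pyrimidines within 15 bases of a start, on the strand of the gene, was found for 38 of 57 members (66.7%) and 40.3% of 27025 symbols. CCGGAAG on either strand, in the 300 bases from 250 before to 50 after the start, was found for 24 members (42.1%) and 9.93% of symbols. TATAAA in the 50 bases before the start was found for 0 members and 3.15% of symbols. These RefSeq starts need not be the starts in GENCODE, and that of Rpl27 lies outside its GENCODE gene. A match describes letters and is not a measured site.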

How the data were processed

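The deposited values are UMI counts per gene and barcode, in 1 control and 2 mutant libraries. Per the file headers, Cell Ranger 7.0.0 produced them. The submitters' processing notes list the build mm10 and Seurat 4.0.0, without a role for the latter. How reads shared with pseudogene copies or introns were counted was not given in the sources used here.

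Barcodes with at least 500 genes and under 10% mitochondrial UMIs were kept, and 41, 96 and 122 doublets called by scrublet (scanpy 1.11.5, expected rate 0.06) were removed. A cell joined a class when its markers, at least 2 of them detected, passed a limit per 10000 UMIs in 1 of 8 gates only: 10 for mesenchyme, ectoderm and endothelium, 2000 for erythroid cells and 6 for flank mesoderm. UMIs were summed per library and class, and genes that averaged 5 CPM or more entered edgeR 4.0.16 with an adjusted p threshold of 0.05. DESeq2 1.42.0 and limma 3.58.1 were alternatives. Mutant against control has 1 residual degree of freedom, so the single control has no spread of its own. edgeR weighs a gene's spread between the mutants against the trend over all genes. The weight of that trend, the prior degrees of freedom, was infinite in mesenchyme and in both interaction fits, so a gene's own spread did not count there. It was 2.23 to 4.19 in the other classes, so counts of calls in mesenchyme and elsewhere rest on unlike error estimates. Tested on simulated data over 10096 mesenchyme genes, the fit of mutant against control recovered 40 of 100 genes changed by a log2 of 1. It recovered 100 of 100 changed by 2, with 10 false calls. All genes were drawn at mesenchyme depths with the same dispersion, the spread beyond counting error, of 0.0328. The recovery in the other classes is therefore not known.

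The members, lists and comparisons were chosen with earlier results of these data known. Members were named when they had 1 of the 5 lowest p in a class, 1 of the 10 widest ranges between classes, or a place in a list of known roles; a few results that this rule reaches are not reported here. Gene coordinates came from GENCODE vM21.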

Additional observations from a re-analysis of the deposited data

Results flagged for a closer look

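Cells outside the compared classes also carried member UMIs. In myogenic progenitors, with 21 control cells, the member share was 9.03% in control 1, 17.3% in mutant 1 and 19.3% in mutant 2, and the mutant mean exceeded the control by 9.26 percentage points. In coelomic epithelium, with 24 control cells, it exceeded it by 1.85 points. Barcodes left out for too few genes had median shares of 3.51%, 12.8% and 7.04%, a difference of 6.41 points, and those over the mitochondrial limit differed by 2.07 points. None of these was tested.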

How the results depend on the processing

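No paired analysis was possible because there is 1 control library and its label carries no replicate number. Within 10000 to 60000 UMIs the share difference moved to 1.93 points in mesenchyme, with mutant 1 below the control and mutant 2 above it. In the same window the difference was 2.32 in ectoderm, 1.64 in flank mesoderm, 7.43 in endothelium and 0.974 in erythroid cells. At 30000 UMIs or more, a limit chosen after seeing the data, it was -0.029 in ectoderm and -1.30 in flank mesoderm. A stricter gate gave 2.38 in mesenchyme and -0.013 in erythroid cells. With each cell weighted alike it was -3.03 in mesenchyme, 0.213 in endothelium and -0.273 in erythroid cells, and without mitochondrial and haemoglobin UMIs 0.745 in erythroid cells. Leaving out 1 library gave -2.03 to 1.09 in mesenchyme, -2.65 to -1.32 in ectoderm, -2.68 to -1.60 in flank mesoderm, -0.588 to 0.048 in endothelium and -1.11 to -0.659 in erythroid cells.

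Members called between genotypes became 1 in ectoderm, 1 in endothelium and 2 in erythroid cells with DESeq2, 4 in ectoderm and 3 in erythroid cells with no filter, and 71 in endothelium within the depth window. Within that window the log2 difference turned positive for Rps27l (0.13) and Rpl31 (0.10) in ectoderm, for Rpl27 (0.45), Rpl10 (0.77), Rps2 (0.84), Rpl35 (0.61) and Rpl13a (0.56) in endothelium, for Rps2 (0.0083), Rpl35 (0.0065), Rpl41 (0.26) and Rps28 (0.12) in flank mesoderm, and for Rpl10 in mesenchyme (0.049, and 0.084 with a stricter gate). Members lower in mesenchyme numbered 25 (20.9% of all genes) with a total lacking members, mitochondrial and haemoglobin genes, 16 scaled to the members, 0 without erythroid cells, 1 without TMM factors, 36 (27.6%) at a mitochondrial limit of 5%, and 7 to 71 with 1 library left out. Members lower in ectoderm numbered 12 scaled to the members and 48 without TMM factors. Members lower in flank mesoderm numbered 15 and 51 under these scalings and 30 (21.6% of genes) without erythroid cells. Members higher in erythroid cells numbered 21 and 30. Members higher in endothelium numbered 1 (28.3% of genes) with the reduced total, 14 scaled to the members, 74 without erythroid cells, 45 without TMM factors and 0 to 2 with 1 library left out (26.5% to 29.4%). For Rps27l by Cdkn1a, leaving out 1 library gave 0.41 to 0.55 in mesenchyme, 0.14 to 0.22 in endothelium and 0.31 to 0.53 in erythroid cells. In ectoderm it was 0.35 at 30000 UMIs or more and 0.087 scaled to the members. The cause of these shifts was not tested. Flank mesoderm gave no value with a looser gate or with clusters made without the members. The depth limit, the mitochondrial limit of 5% and the Cdkn1a comparison were chosen after seeing the data.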
